A study of Mus musculus with 28 samples.

Results

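The 37 genes described here encode the steps by which a cell takes up glucose, breaks it down to pyruvate, exports lactate or diverts sugar phosphate into the pentose phosphate pathway. They were listed by name and matched to the gene symbols of an Affymetrix mouse expression array. Of the 37, 32 had a probe set that carried their symbol alone, out of 18193 genes measured in that way. Gpi1, Pfkfb1, Eno1 and G6pdx had none in the annotation used, and Gapdh had control probe sets and probe sets of several genes only, so these 5 are not analysed here. For the 18 genes with more than 1 probe set, the values are those of the probe set that varied most (largest SD) across arrays, and other probe sets are given beside some of the results. In 4 of the 18 at least 1 other probe set had the opposite sign in the comparison of the lines at 25 mM, as the mean over times. This held for 12 of the 18 between the lines at 25 mM and 72 h, and for 10 at 1 mM and 72 h. For glucose in K-ras at 72 h it held for 14 of the 18, so the direction of a difference can rest on the probe set.

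Total RNA was measured on 28 arrays, in NIH3T3 K-ras (below, K-ras), a derivative named for the K-ras oncogene, and in NIH3T3, an immortalised mouse fibroblast line. The labels give no K-ras allele, promoter or clone, and there was 1 line of each kind, so a difference between the lines cannot be credited to K-ras itself. The K-ras groups were cells in 25 mM glucose at 0, 24, 48 and 72 h after a change of medium, and cells in 1 mM glucose at 24, 48 and 72 h. The NIH3T3 groups were the same 7, and each of the 14 groups had 2 arrays from cultures labelled as biological replicates. All cultures had 4 mM glutamine, were kept with 10% newborn calf serum in growth medium, and had been in culture for 18 h before the medium change, which is the time 0 h. Each deposited value is a log2 ratio to the gene's own median over the 28 arrays, so 0 is the gene's middle level here, and neither the absolute level of a gene nor its presence can be read. In RNA from whole cultures, fewer cells that express a gene and less RNA per cell cannot be told apart.

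Glycolysis begins with uptake through the Slc2a glucose transporters and capture of glucose by the hexokinases. The phosphofructokinases then commit the sugar to breakdown, under control of fructose 2,6-bisphosphate, which the Pfkfb enzymes make and degrade. Aldolase, triose phosphate isomerase, phosphoglycerate kinase, phosphoglycerate mutase, enolase and pyruvate kinase lead to pyruvate, which lactate dehydrogenase converts to lactate and the Slc16a carriers move across the cell membrane. Most steps have several isoforms that differ between tissues, and cells transformed by Ras are known for high glucose uptake and lactate release.

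The arrays did not all follow their labels. Grouped by the 500 genes with the largest SD, with the glycolysis and pentose phosphate genes left out, 6 arrays fell with the other line: both NIH3T3 arrays at 1 mM and 24 h, replicate 1 of NIH3T3 at 1 mM and 48 h, and replicate 1 of K-ras at 25 mM and 0 h, at 1 mM and 48 h and at 1 mM and 72 h. Labels were kept in every test, and results are given with and without these 6 arrays. Leaving out arrays by their line profile narrows the spread of genes that differ between lines, so the second value is not an independent check. Replicate 1 of K-ras at 25 mM and 72 h stood apart in its spread, with an interquartile range of 0.777, and gave the highest or lowest value of the 8 K-ras arrays at 25 mM for 22 of the 32 genes. Replicate 1 of K-ras at 1 mM and 72 h had a Gapdh 5' minus 3' control difference of -2.09 on the log2 scale, against -0.43 on the next lowest array; this measure falls when RNA is degraded or copied in part. The hybridisation control bioC was at -2.34 to -0.84 on 12 arrays, all labelled NIH3T3 and among them all 8 at 25 mM, so at 25 mM the line and this control cannot be told apart.

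Promoters are shown for Eno2 and Eno3 and for Pfkp and Pfkl, isoforms that ran in opposite directions between the lines, and for Ldha, Ldhb and Slc16a1. Ldhb and Slc16a1 moved in the NIH3T3 time course, and Ldha is the partner subunit of Ldhb. Other genes that differed, such as Pfkfb4, Pfkm and Rpia, are not shown. Isoforms are set side by side because the same reaction is carried out by genes under separate control regions. The bases run 5' to 3' on the gene's strand, end at the base before the annotated start, and come from RefSeq on GRCm38.p6: Eno2 chr6:124769674-124769823 (minus strand), Eno3 chr11:70657026-70657175 (plus strand), Pfkp chr13:6648772-6648921 (minus strand), Pfkl chr10:78009808-78009957 (minus strand). Capitals mark GGGCGG on either strand, the core of the GC box.
Eno2: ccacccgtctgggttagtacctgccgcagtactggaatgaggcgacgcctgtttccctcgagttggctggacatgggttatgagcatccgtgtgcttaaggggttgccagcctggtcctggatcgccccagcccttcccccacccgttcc
Eno3: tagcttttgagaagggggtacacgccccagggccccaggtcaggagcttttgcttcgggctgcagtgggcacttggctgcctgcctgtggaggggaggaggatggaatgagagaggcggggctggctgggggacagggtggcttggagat
Pfkp: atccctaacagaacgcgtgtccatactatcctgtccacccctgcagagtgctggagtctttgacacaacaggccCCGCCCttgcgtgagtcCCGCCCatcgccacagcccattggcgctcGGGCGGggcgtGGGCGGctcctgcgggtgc
Pfkl: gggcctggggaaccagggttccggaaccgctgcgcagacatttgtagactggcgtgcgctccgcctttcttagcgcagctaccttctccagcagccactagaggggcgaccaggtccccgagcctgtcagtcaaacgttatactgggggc

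The Pfkp sequence held 4 matches to GGGCGG, at -76, -59, -30 and -19 from the start, and those of Eno2, Eno3 and Pfkl held 0 in these 150 bases. Over 250 bases, 25 of the 35 genes of the set with a RefSeq entry held GGGCGG (71.4%), against 35.4% of 27025 genes. A gene counted if any of its annotated starts held the motif. Neither GC content nor the number of starts was matched, here or for the motifs below, and their part in these shares was not tested. For the lactate genes the positions were Ldha chr7:46845654-46845803 (plus strand), Ldhb chr6:142507958-142508107 (minus strand), Slc16a1 chr3:104638414-104638663 (plus strand), and capitals mark ACGTG on either strand, the core of the hypoxia response element, which also lies inside the E-box CACGTG and is then read on both strands.
Ldha: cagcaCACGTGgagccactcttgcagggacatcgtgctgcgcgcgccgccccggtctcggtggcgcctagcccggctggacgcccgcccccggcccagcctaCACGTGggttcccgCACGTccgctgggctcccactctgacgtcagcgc
Ldhb: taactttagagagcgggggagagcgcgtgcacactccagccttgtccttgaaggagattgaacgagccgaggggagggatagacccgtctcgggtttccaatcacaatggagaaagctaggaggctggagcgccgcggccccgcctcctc
Slc16a1: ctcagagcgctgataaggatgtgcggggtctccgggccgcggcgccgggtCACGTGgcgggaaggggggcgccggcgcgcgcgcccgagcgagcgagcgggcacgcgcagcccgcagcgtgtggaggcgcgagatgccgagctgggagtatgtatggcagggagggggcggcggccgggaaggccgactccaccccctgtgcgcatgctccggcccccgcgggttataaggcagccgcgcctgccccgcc

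Ldha, shown for 1 of its 2 annotated starts, held 5 matches counted over both strands, Slc16a1 held 2 and Ldhb held 0 in these bases. Over 250 bases, ACGTG was in 12 of 35 genes of the set (34.3%), against 18.5% of genes: Slc2a1, Hk2, Pfkm, Pfkfb2, Pfkfb3, Aldoa, Pgk1, Pgam1, Pkm, Ldha, Slc16a1 and Slc16a3. CACGTG was in 5 of 35 (14.3%), against 6.9% of genes. Of 2 further motifs, TATAAA was in Eno2 and Pfkfb1 (5.7%, against 14.3% of genes) and TGANTCA, the AP-1 site, in Aldoa alone (2.9%, against 7.8%). These are matches of letters, and no binding was measured.

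**Figure D1:**
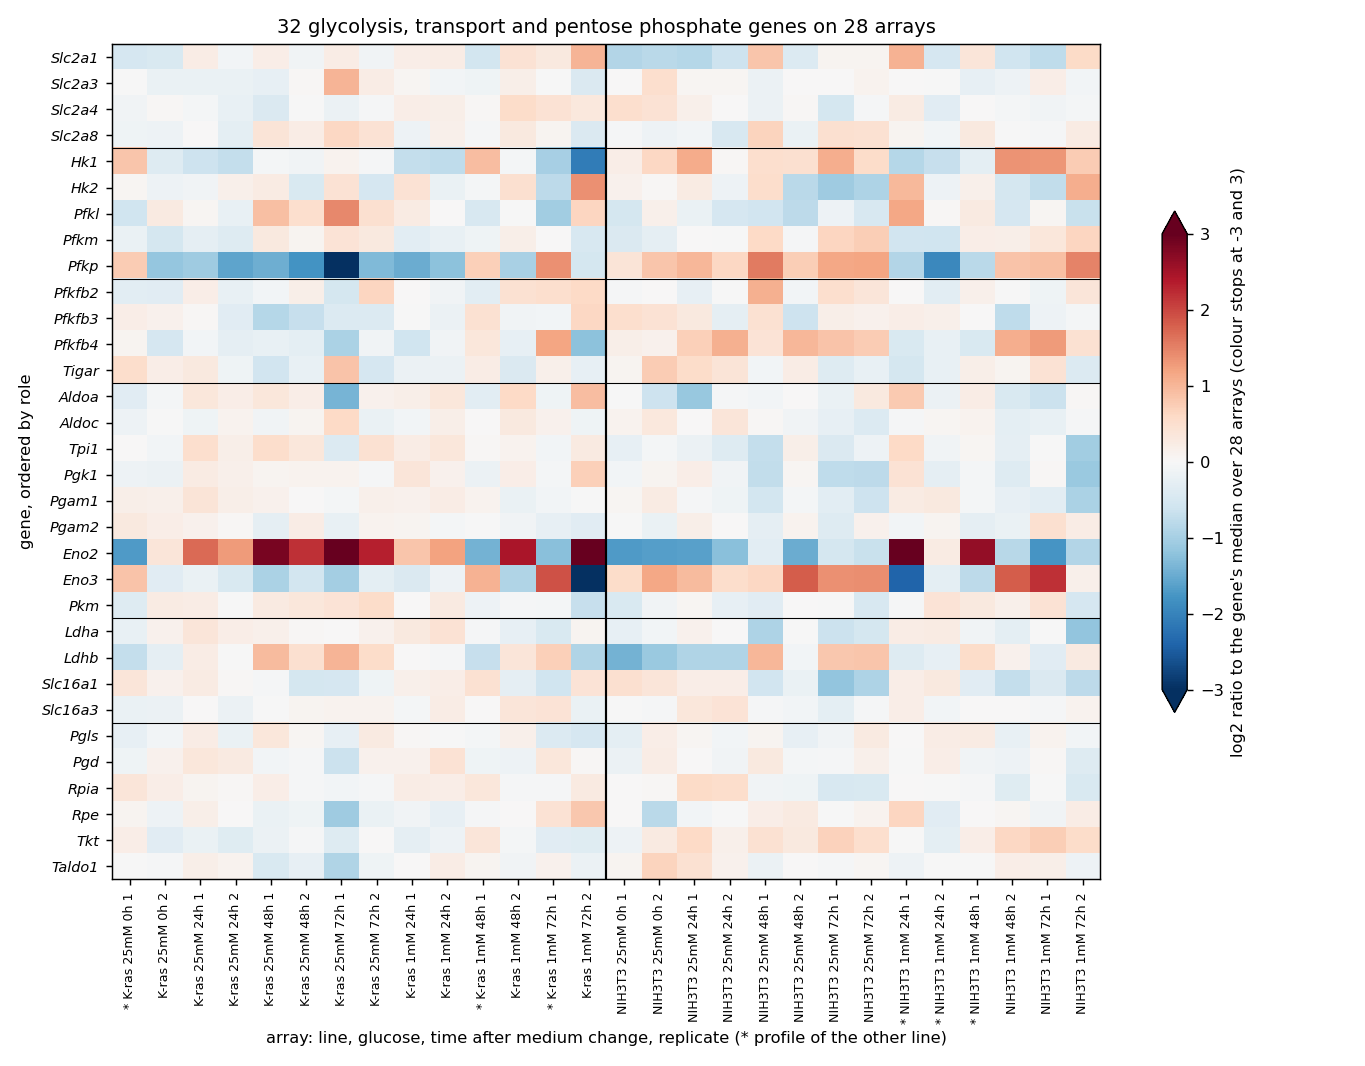
Log2 ratio of each of the 32 measured genes to its median over 28 arrays (colour, with the scale ending at -3 and 3), with genes in rows by role and arrays in columns, K-ras left of NIH3T3. Eno2, Eno3 and Pfkp vary most, and the starred arrays, which fell with the other line, carry the colours of the other line for these 3 genes.

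The first comparison asked how the K-ras line differed from NIH3T3 at 25 mM glucose, as the mean over 0, 24, 48 and 72 h. By limma with Benjamini-Hochberg adjustment over all genes, 4 of the 32 genes passed the threshold of an adjusted p of 0.05, 1 higher and 3 lower in K-ras, against a background of 11.3% of all genes tested (5.67% in each direction). Eno2, the enolase isoform typical of neurons, was 6.38-fold higher. Pfkp, the phosphofructokinase isoform first known from platelets, was 5.15-fold lower. Pfkfb4, which makes and degrades fructose 2,6-bisphosphate, was 1.91-fold lower and Tkt, the transketolase of the pentose phosphate pathway, 1.43-fold lower. The median log2 difference was 0.02 over the 32 genes and -0.04 over all genes. Of the 32 differences 17 were positive and 15 negative, and 42.5% of all genes had a positive one.

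Eno2 and Eno3, the muscle enolase, stood in opposite order in the lines. Eno2 lay between -1.69 and 3.17 on the 8 K-ras arrays at 25 mM (median 1.94), against -1.69 to -0.31 on the 8 NIH3T3 arrays (median -1.36). The ranges overlapped only through replicate 1 at 0 h, an array with the profile of NIH3T3, and the other 7 K-ras arrays began at 0.36. The log2 difference was 2.67 ± 0.69 (SE, limma adjusted p = 0.0188), and 2.93 ± 0.22 without the 6 arrays (adjusted p = 7.12e-07). In K-ras, Eno2 read -1.69 and 0.36 at 0 h, 1.69 and 1.28 at 24 h, 2.85 and 2.18 at 48 h, and 3.17 and 2.32 at 72 h. All 4 late arrays were above all 4 early ones, but the share of all genes for which this holds was not counted. The K-ras change at 72 against 24 h was not called. In NIH3T3 at 25 mM the mean of Eno2 also rose, from -1.67 at 0 h to -0.61 at 72 h. That rise was not called either, and no NIH3T3 array at 25 mM reached 0. The call was lost in 1 of 16 refits that left out an array, with an adjusted p of 0.0639 without replicate 2 of K-ras at 0 h, which left that time to the array out of place.

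Eno3 lay between -1.03 and 0.86 on the K-ras arrays at 25 mM (median -0.40), against 0.53 to 1.81 on the NIH3T3 arrays (median 1.05). Here too the overlap came from replicate 1 of K-ras at 0 h alone, and the other 7 stood at or below -0.19. The log2 difference of -1.42 ± 0.60 missed the threshold (SE, limma adjusted p = 0.143) and was -1.57 ± 0.29 without the 6 arrays (adjusted p = 0.0016). The difference Eno2 minus Eno3, which is not a ratio of transcript amounts because each value is relative to its own gene, ran from 0.70 to 4.20 on the 7 K-ras arrays in place, against -3.29 to -0.93 on the 8 NIH3T3 arrays. Both genes had 1 probe set. Eno1, the main enolase of most cells, was not analysed here, so the share of each isoform in total enolase is unknown.

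Phosphofructokinase showed a like opposition. Pfkp lay between -3.84 and 0.77 on the 8 K-ras arrays at 25 mM (median -1.40), against 0.38 to 1.57 on the 8 NIH3T3 arrays (median 0.91). Without replicate 1 at 0 h the highest K-ras value was -1.06, and the lines did not overlap. The log2 difference was -2.37 ± 0.41 (SE, limma adjusted p = 0.00465) and passed in all 16 refits without 1 array. Its size depended on the probe set: the other 2 probe sets of Pfkp gave -0.63 and -0.23. Pfkl, the liver isoform, ran the other way, with -0.60 to 1.45 in K-ras (median 0.37), against -0.78 to 0.15 in NIH3T3 (median -0.48). Its log2 difference of 0.73 ± 0.25 missed the threshold (adjusted p = 0.0726) and was 0.84 ± 0.18 without the 6 arrays (adjusted p = 0.00511), while its 2 other probe sets gave -0.12 and 0.58. Pfkp minus Pfkl was -5.29 to -1.12 on the 7 K-ras arrays in place, against 0.68 to 2.13 in NIH3T3. Pfkm, the muscle isoform, differed by -0.19 ± 0.10 (adjusted p = 0.276).

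**Figure D2:**
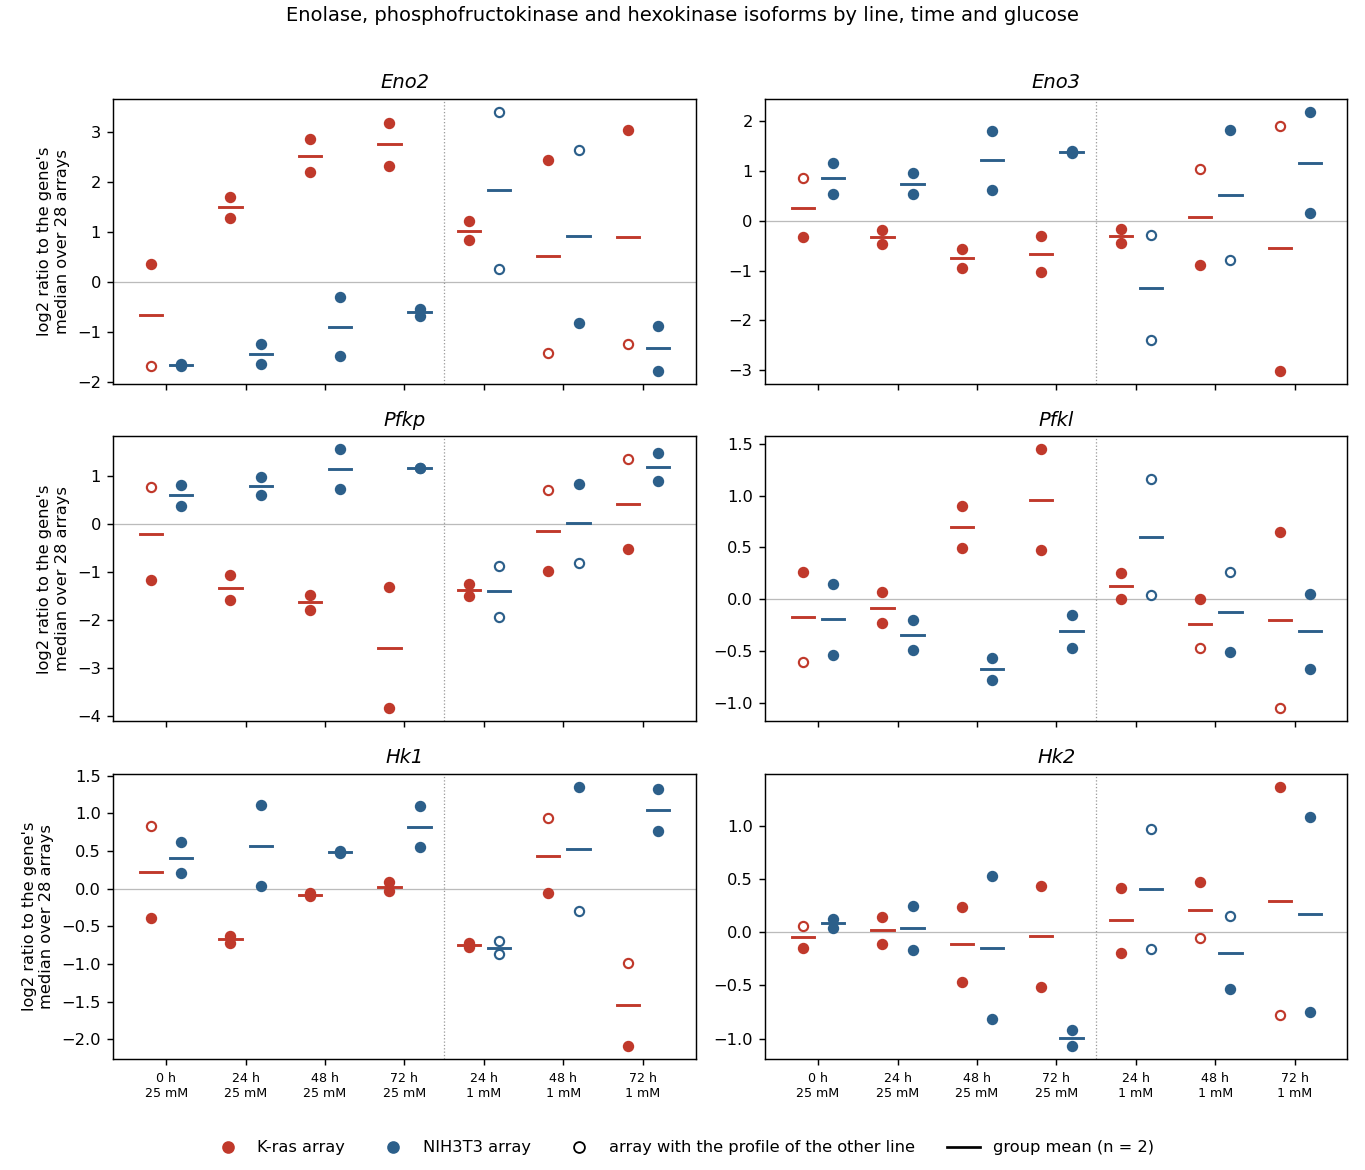
Log2 ratio to the gene's median (y axis) for isoforms of enolase, phosphofructokinase and hexokinase by time and glucose (x axis), with K-ras arrays left of NIH3T3 arrays, bars at the mean of 2 arrays, and hollow points for the 6 arrays with the profile of the other line. At 25 mM the filled K-ras points of Eno2 lie above those of NIH3T3 and the filled K-ras points of Eno3 and Pfkp below them.

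Pfkfb4 was the 1 gene of the 32 whose arrays at 25 mM did not overlap between the lines with all arrays taken as labelled, where 0.605% of all genes did not overlap and 0.231% were lower without overlap. It lay between -0.95 and 0.08 in K-ras (median -0.25), against 0.12 to 1.06 in NIH3T3 (median 0.74). Its log2 difference of -0.93 ± 0.29 was near the threshold (SE, limma adjusted p = 0.0487) and passed in 2 of 16 refits without 1 array, with adjusted p up to 0.13. Pfkfb3, the isoform of proliferating cells, differed by -0.43 ± 0.16 (adjusted p = 0.103) and Pfkfb2, the heart isoform, by -0.26 ± 0.18 (adjusted p = 0.423). Tigar, which lowers fructose bisphosphate, differed by -0.11 ± 0.19. All 4 measured genes of this control step had a negative difference, where 42.5% of all genes had a positive one, and 1 of the 4 passed. Another probe set of Tigar gave 0.04.

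Of the hexokinases, Hk1, the form found in most tissues, lay between -0.72 and 0.84 in K-ras at 25 mM (median -0.08), against 0.03 to 1.11 in NIH3T3 (median 0.52). Its log2 difference was -0.70 ± 0.26 (SE, limma adjusted p = 0.0918) and -0.85 ± 0.17 without the 6 arrays (adjusted p = 0.00247), and its other probe set gave -0.86. Hk2, the inducible form of muscle and tumours, overlapped throughout and differed by 0.21 ± 0.33 (adjusted p = 0.76). Of the 4 glucose transporters 0 passed. Slc2a1, the basal transporter, lay between -0.50 and 0.23 in K-ras (median -0.09), against -0.88 to 0.83 in NIH3T3 (median -0.52), with a log2 difference of 0.25 ± 0.26. Slc2a3, the neuronal transporter, differed by -0.02 ± 0.12, Slc2a4, the insulin-responsive transporter of muscle and fat, by -0.18 ± 0.11, and Slc2a8, an intracellular transporter, by 0.06 ± 0.13.

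In lower glycolysis, 1 of 9 measured genes passed, and 8 of the 9 differences were positive, where 42.5% of all genes had a positive difference. Apart from the enolases they were small: Tpi1 (triose phosphate isomerase) differed by 0.44 ± 0.17, Pkm (pyruvate kinase) by 0.40 ± 0.15, Pgam1 (phosphoglycerate mutase) by 0.32 ± 0.10 and Pgk1 (phosphoglycerate kinase) by 0.30 ± 0.17. Their adjusted p ran from 0.0543 for Pgam1 to 0.304 for Pgk1. Pkm passed without the 6 arrays at 0.48 ± 0.15 (limma adjusted p = 0.0439). The aldolases Aldoa and Aldoc differed by 0.15 ± 0.25 and 0.01 ± 0.11, and Pgam2, the muscle mutase, by 0.11 ± 0.10. The other probe set of Aldoc gave -0.09.

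Of the 4 lactate genes 0 passed between the lines. Ldha, the lactate dehydrogenase subunit that favours lactate formation, differed by 0.39 ± 0.15 (SE, limma adjusted p = 0.121). Ldhb, the heart subunit, differed by 0.50 ± 0.22 (adjusted p = 0.168), and by 0.56 ± 0.17 without the 6 arrays (adjusted p = 0.037). The lactate carriers Slc16a1 and Slc16a3 differed by 0.15 ± 0.15 and -0.06 ± 0.09. In the pentose phosphate pathway, 1 of 6 genes passed. Tkt lay between -0.39 and 0.21 in K-ras (median -0.19), against -0.15 to 0.68 in NIH3T3 (median 0.38), with a log2 difference of -0.52 ± 0.12 (adjusted p = 0.00994) that passed in all 16 refits without 1 array; its 2 other probe sets gave -0.52 and -0.03. Taldo1, the transaldolase that works beside it, differed by -0.33 ± 0.12 (adjusted p = 0.0796). Pgd and Pgls of the oxidative branch differed by -0.04 ± 0.12 and 0.03 ± 0.12, Rpe by -0.14 ± 0.15 and Rpia by 0.09 ± 0.09.

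**Figure D3:**
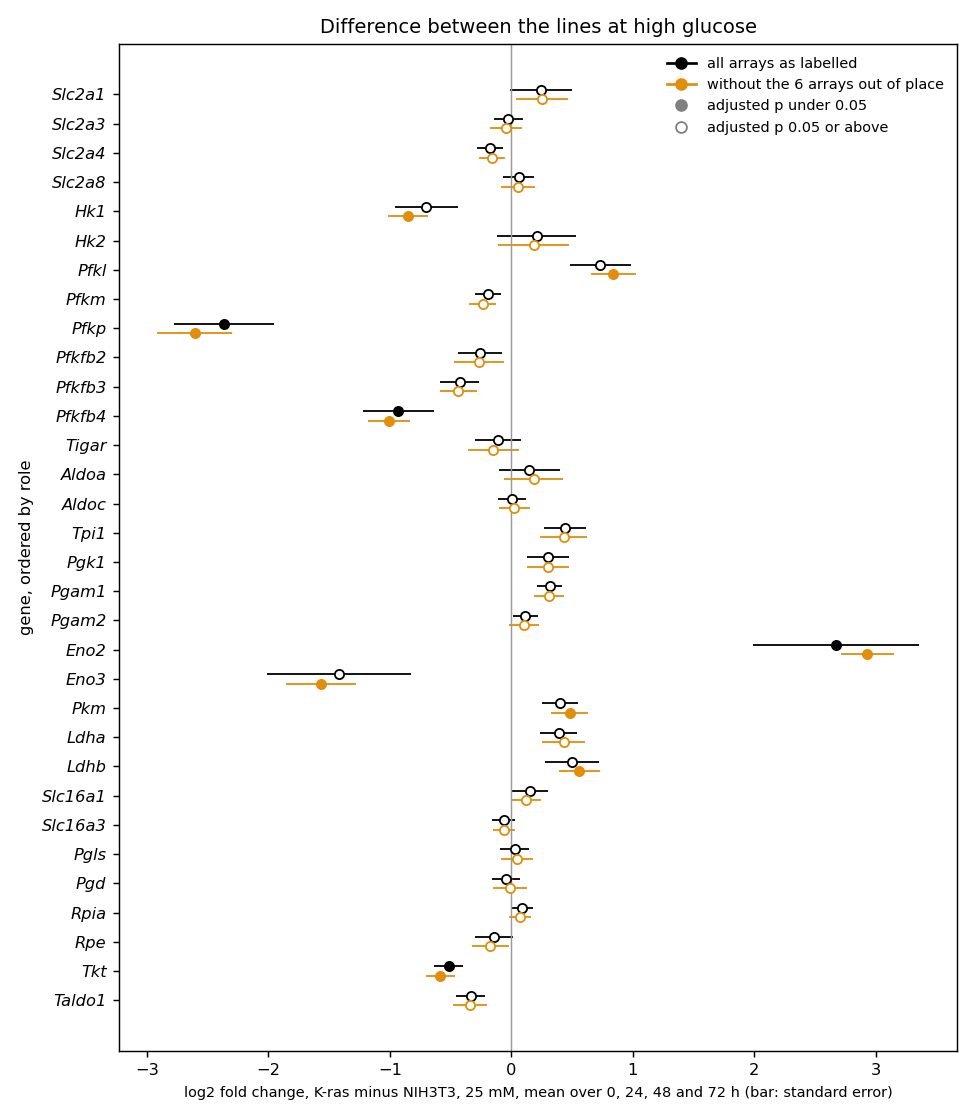
Log2 fold change of K-ras over NIH3T3 at 25 mM glucose, mean over 4 times (x axis), for each of the 32 genes by role (y axis), with standard errors, from all arrays (black) and without the 6 arrays out of place (orange). Filled points passed an adjusted p of 0.05: Pfkp, Pfkfb4, Eno2 and Tkt with all arrays, and 9 genes without the 6.

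Without the 6 arrays, 9 of the 32 genes passed, against a background of 17.9% of all genes, and K-ras at 0 h then rested on 1 array that was taken to vary like the others. The 5 further genes were Hk1 and Eno3, lower in K-ras, and Pfkl, Pkm and Ldhb, higher. On the 7 and 8 arrays in place at 25 mM, Eno2 was above and Pfkp, Pfkfb4 and Eno3 below NIH3T3 without overlap, where 6.22% of all genes did not overlap (3.11% in each direction). Of 44 further genes of sugar metabolism, 40 were measured. In the comparison of all arrays 1 of the 40 passed, against a background of 11.3% of all genes. It was Mpc1, a subunit of the mitochondrial pyruvate carrier, at -0.54 ± 0.16 (SE, limma adjusted p = 0.0346). Markers of other cell types were counted in the same comparison, with the same background of 11.3%. Of 6 epithelial markers Krt14, Epcam and Cdh1 passed, all lower in K-ras. Of 6 neuronal markers Map2 and Tubb3 passed, 1 in each direction, and of 10 skeletal muscle markers Acta1 and Des passed, both lower in K-ras. Cd68 of 5 leukocyte markers and Fabp4 of 3 fat markers were higher in K-ras, and fibroblast markers gave 0 of 7. Their part in the values of Eno2 and Eno3, isoforms of neurons and muscle, was not tested.

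At 72 h alone, the comparison at 25 mM called 1 of the 32 genes, against a background of 0.726%. Pfkp read -3.84 and -1.32 in K-ras, against 1.17 and 1.18 in NIH3T3, a log2 difference of -3.75 ± 0.82 (SE, limma adjusted p = 0.0453). The call rested on the array that stood apart: without replicate 1 of K-ras the difference was -2.49 (adjusted p = 0.302). It was also lost with either NIH3T3 array left out (adjusted p = 0.313 and 0.28), and the mean of all 3 probe sets gave -1.59 (adjusted p = 0.0611). Eno2 differed by 3.35 ± 1.37 (adjusted p = 0.172). Without the 6 arrays, 6 genes passed, against a background of 8.89%: Eno2 at 3.35 ± 0.41, Pfkl at 1.27 ± 0.34, Pfkp at -3.75 ± 0.58, Eno3 at -2.05 ± 0.54, Pfkfb4 at -1.33 ± 0.33 and Tkt at -0.78 ± 0.22. None of the 6 arrays is at 25 mM and 72 h, so the differences were those of all arrays. Only the error, which is shared over all groups, was smaller, for Eno2 0.41 in place of 1.37. The K-ras group still held the array that stood apart. With all arrays the other probe sets gave -0.72 and -0.30 for Pfkp, -0.23 and 1.06 for Pfkl, and -1.01 and 0.14 for Tkt.

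At 1 mM and 72 h, 1 of the 32 genes was called, against a background of 0.253%. Hk1 read -0.99 and -2.09 in K-ras, against 1.32 and 0.76 in NIH3T3. The log2 difference was -2.58 ± 0.51 (SE, limma adjusted p = 0.0419), but its other probe set gave -0.46 and the mean of both gave -1.52 (adjusted p = 0.175). The call stood in 1 of 4 refits without 1 array, the one that left out replicate 1 of K-ras. Eno2 read -1.25 and 3.03 in K-ras, against -1.78 and -0.88 in NIH3T3, and Eno3 read 1.90 and -3.01, against 2.19 and 0.15. The K-ras replicates thus lay on opposite sides for both enolases, and replicate 1 is the array with the NIH3T3 profile and the low Gapdh 5' minus 3' control. Without the 6 arrays the K-ras group was replicate 2 alone, kept for its line profile, whose spread was taken from the other groups, so these calls have no replicate of their own. There 7 genes passed, against a background of 8.09%. They were Hk1 (-3.13 ± 0.38), Eno2 (4.36 ± 0.51), Eno3 (-4.18 ± 0.66), Pfkfb4 (-2.10 ± 0.40), Tkt (-1.02 ± 0.27), Pfkm (-0.98 ± 0.26) and Slc16a1 (1.03 ± 0.28); with all arrays the other probe set of Slc16a1 gave 0.03. Of the 40 further sugar genes measured, 1 passed with all arrays, against the background of 0.253%. It was Bsg, the chaperone of the lactate carriers, at -1.13 ± 0.22 (limma adjusted p = 0.0407).

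The time course in 25 mM glucose asked what changed as NIH3T3 cultures aged after the medium change. Between 24 and 0 h, 0 of the 32 genes passed, against a background of 0.0055%, with 1 of the 32 (all genes, 4.55%) under an unadjusted p of 0.05 by limma. At 72 against 0 h, 3 passed, against a background of 5.52% (3.68% higher and 1.84% lower): Ldhb was 4.23-fold higher, Pfkm 2.06-fold higher and Slc16a1 2.76-fold lower. At 72 against 24 h, 3 passed, against a background of 6.15% (4.06% higher and 2.08% lower): Ldhb was 3.30-fold higher, Slc16a1 2.36-fold lower and Rpia, the isomerase that makes ribose phosphate, 2.02-fold lower. The shares, 3 of 32 in each case, were close to those of all genes, and no NIH3T3 array at 25 mM had the profile of the other line.

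Ldhb in NIH3T3 read -1.41 and -1.12 at 0 h, -0.91 and -0.90 at 24 h, 0.99 and -0.08 at 48 h, and 0.81 and 0.82 at 72 h. Both arrays at 72 h stood above all 4 early arrays. The log2 change at 72 h was 2.08 ± 0.45 against 0 h (SE, limma adjusted p = 0.0138) and 1.72 ± 0.45 against 24 h (adjusted p = 0.0316), and its 3 other probe sets gave 1.41 to 1.72 against 0 h. For Ldha the values were -0.65 and -0.52 at 72 h, against -0.23 and -0.07 at 0 h, a log2 difference of -0.43 ± 0.31 (adjusted p = 0.485). Slc16a1, the carrier that moves lactate in either direction, read 0.47 and 0.37 at 0 h, 0.20 and 0.19 at 24 h, -0.57 and -0.20 at 48 h, and -1.17 and -0.92 at 72 h. The 4 times did not overlap, and the share of all genes for which this holds was not counted. Its log2 change was -1.46 ± 0.30 against 0 h (adjusted p = 0.011) and -1.24 ± 0.30 against 24 h (adjusted p = 0.0229), while its other probe set gave -0.51 and -0.32. Slc16a3, the carrier known for lactate export, gave a log2 difference of -0.14 ± 0.19 against 0 h (adjusted p = 0.757).

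Pfkm in NIH3T3 read -0.44 and -0.26 at 0 h, 0.01 and -0.01 at 24 h, 0.59 and -0.03 at 48 h, and 0.66 and 0.73 at 72 h. The log2 change at 72 against 0 h was 1.05 ± 0.21 (SE, limma adjusted p = 0.0108), and that against 24 h, 0.69 ± 0.21, missed the threshold (adjusted p = 0.0588). Rpia read 0.00 and 0.03 at 0 h, 0.57 and 0.53 at 24 h, -0.11 and -0.12 at 48 h, and -0.47 and -0.45 at 72 h. It was at its highest at 24 h, with close replicates at each time, and its log2 change at 72 against 24 h was -1.01 ± 0.18 (adjusted p = 0.00773). Each of the 3 calls against 0 h was lost when any 1 of the 4 arrays compared was left out, with adjusted p from 0.0627 to 0.123, and those against 24 h likewise except Rpia, which passed in 2 of 4 refits. With the other arrays left out of the fit, 12 of the 32 genes passed at 72 against 0 h, where 27% of all genes did, and 9 at 72 against 24 h, where 19.5% did.

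The core genes of lower glycolysis in NIH3T3 gave 0 calls of 9 at 72 against 0 h. Pgk1 read -0.76 and -0.78 at 72 h, against -0.07 and 0.09 at 0 h, a log2 difference of -0.78 ± 0.34 (SE, limma adjusted p = 0.208). Pgam1 differed by -0.63 ± 0.20 (adjusted p = 0.0835) and Tpi1 by -0.15 ± 0.35. Pkm differed by 0.03 ± 0.30. Of the hexokinases Hk1 differed by 0.41 ± 0.51 and Hk2 by -1.08 ± 0.65 (adjusted p = 0.383), so the pair stood at -1.82 ± 0.50 (SD, n = 2) for Hk2 minus Hk1 at 72 h, against -0.32 ± 0.35 at 0 h. Slc2a4 differed by -0.74 ± 0.22 (adjusted p = 0.0546), which passed without the 6 arrays (adjusted p = 0.0345, with 4 of 32 genes called against a background of 10.7%) but was -0.11 by its other probe set, and Slc2a1 by 0.93 ± 0.51 (adjusted p = 0.333). Among the 40 further sugar genes measured, 1 passed at 72 against 0 h and 1 at 72 against 24 h, where 5.52% and 6.15% of all genes did. Both times it was Prps1, which makes the ribose precursor of nucleotides. Prps1 fell by 1.58 ± 0.38 on the log2 scale at 72 against 0 h (limma adjusted p = 0.0225) and by 1.33 ± 0.38 against 24 h (adjusted p = 0.0454). Among the cell type markers, 1 of 10 of muscle (Acta1) and 1 of 6 of neurons (Tubb3) were lower at 72 than at 0 h. Acta1 had already been called lower at 24 against 0 h. Of 7 fibroblast markers 1, Pdgfrb, was higher at 72 than at 24 h. The backgrounds were the same 5.52% and 6.15% of all genes.

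**Figure D4:**
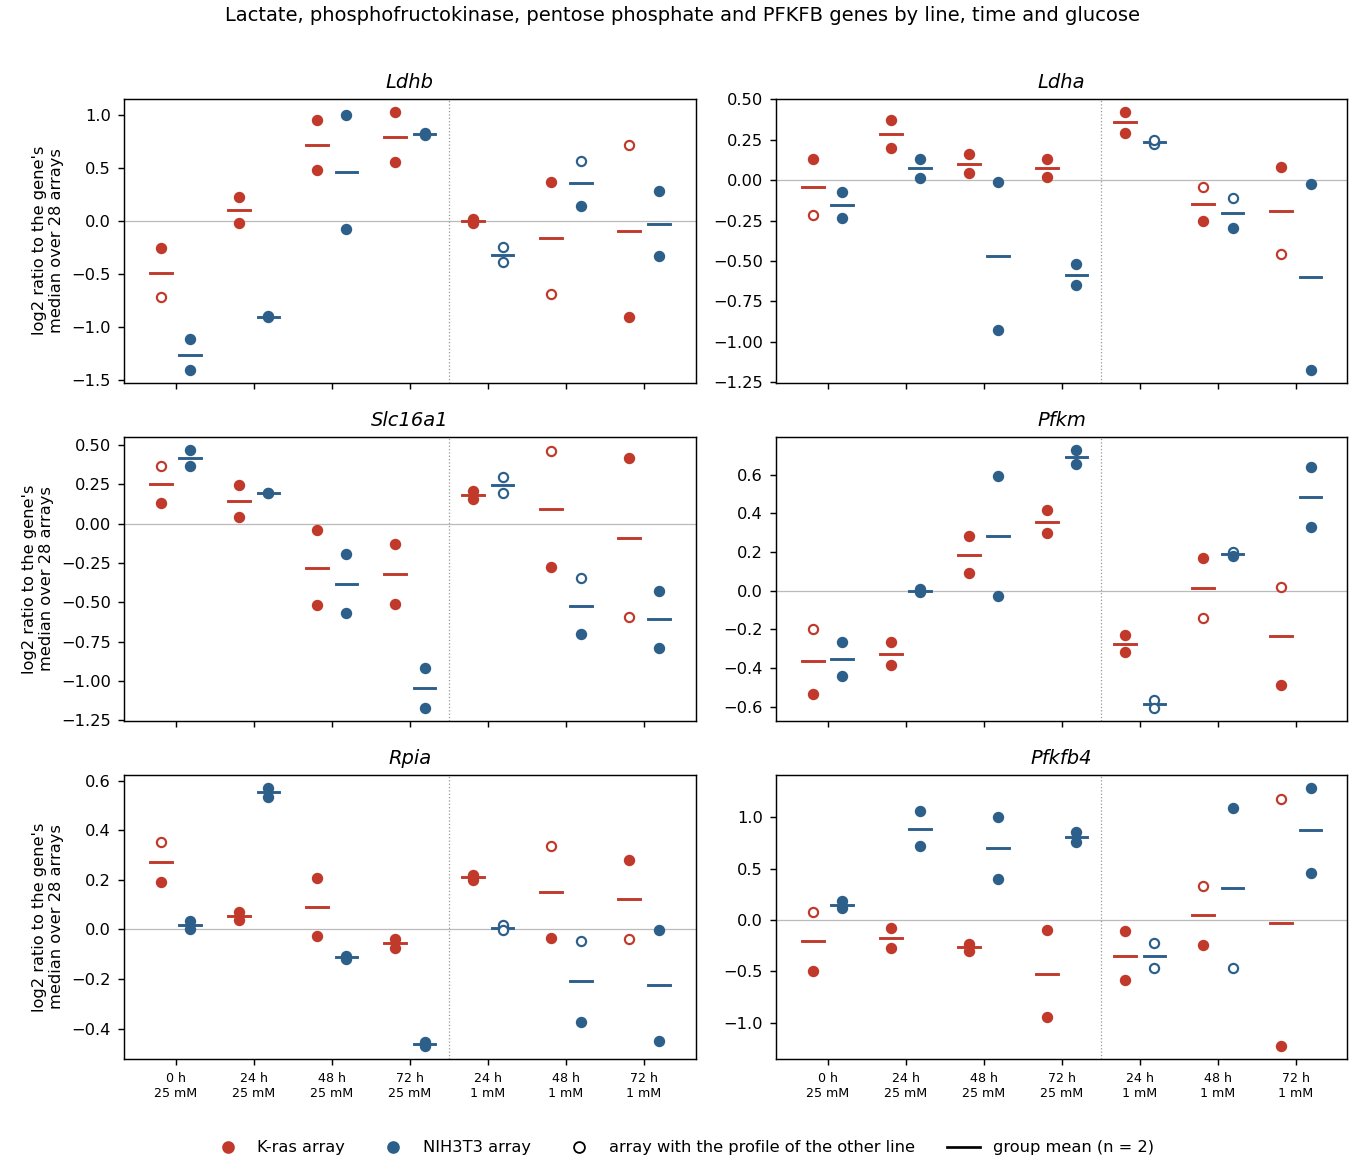
Log2 ratio to the gene's median (y axis) for Ldhb, Ldha, Slc16a1, Pfkm, Rpia and Pfkfb4 by time and glucose (x axis), with K-ras arrays left of NIH3T3 arrays, bars at the mean of 2 arrays, and hollow points for arrays with the profile of the other line. In NIH3T3 at 25 mM, Ldhb reaches 0.81 and 0.82 at 72 h while Slc16a1 reaches -1.17 and -0.92.

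In the K-ras line, 0 of the 32 genes passed at 72 against 24 h, against a background of 0%, with 6 of 32 (all genes, 10.2%) under an unadjusted p of 0.05 by limma. Ldhb read -0.72 and -0.26 at 0 h, 0.22 and -0.02 at 24 h, 0.95 and 0.48 at 48 h, and 1.03 and 0.55 at 72 h, with a log2 difference of 0.69 ± 0.45 at 72 against 24 h. Slc16a1 read -0.51 and -0.13 at 72 h, against 0.25 and 0.04 at 24 h, and was not called. Its other probe set was higher at 72 h, by 0.89, from 1.81 on the array that stood apart. The other array read 0.10 there, against 0.12 and 0.005 at 24 h, so the opposite sign rests on 1 array. Slc2a3 gave 0.83 ± 0.24 (adjusted p = 0.441), from values of 1.03 and 0.22 at 72 h, and its higher value came from the array that stood apart. With replicate 2 of 72 h left out, so that this array stood alone, 4 genes passed, Slc2a3 among them, and so did 12.8% of all genes. The difference between the lines in the change from 24 to 72 h was called for 0 of 32 genes, against a background of 0.0055%, with 5 (all genes, 14.6%) under an unadjusted p of 0.05. Its largest value relative to its error was that of Rpia, at 0.90 ± 0.25 (adjusted p = 0.215), and for Ldhb it was -1.03 ± 0.63. The time changes called in NIH3T3 were thus not shown to differ from those in K-ras.

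The glucose comparisons asked which genes answered to 1 mM against 25 mM glucose. In K-ras at 24 h, where no array was out of place, 0 of 32 genes passed, against a background of 0%, and 0 (all genes, 0.643%) were under an unadjusted p of 0.05 by limma. All 32 log2 differences lay between -0.46 for Eno2 and 0.33 for Slc2a4. Slc2a1 read 0.20 and 0.23 at 1 mM, against 0.22 and -0.08 at 25 mM. Ldha read 0.29 and 0.42 at 1 mM, against 0.37 and 0.20 at 25 mM. For both genes the groups overlapped.

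In K-ras at 72 h, 0 of 32 passed, against a background of 0.181%, with 10 of 32 (all genes, 15.3%) under an unadjusted p of 0.05 by limma. Rpe, the epimerase of the pentose phosphate pathway, read 0.42 and 0.82 at 1 mM, against -1.07 and -0.21 at 25 mM, a log2 difference of 1.26 ± 0.31 (SE, adjusted p = 0.088), while its 2 other probe sets gave -0.11 and 0.79. Pfkp read 1.36 and -0.52 at 1 mM, against -3.84 and -1.32 at 25 mM, a difference of 2.996 ± 0.818 (adjusted p = 0.115) in which 1 array of each pair was the one with the other profile or the one that stood apart. The 2 other probe sets of Pfkp gave -0.12 and -0.04, so the difference was seen in 1 of 3 probe sets. Hk1 read -0.99 and -2.09 at 1 mM, against 0.09 and -0.04 at 25 mM, a difference of -1.57 ± 0.51 (adjusted p = 0.169), and its other probe set gave 0.46, the opposite sign. Without the 6 arrays the 1 mM group was 1 array, kept for its line profile, whose spread was taken from the other groups, so these calls have no replicate of their own. There 3 genes passed, against a background of 3.74%: Hk1 at -2.12 ± 0.38, Ldhb at -1.70 ± 0.39 and Rpe at 1.46 ± 0.35. Without replicate 2 at 25 mM, which left that group to the array that stood apart, 6 of the 32 passed and so did 13.8% of all genes.

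In NIH3T3 at 72 h, where no array was out of place, 0 of 32 passed, against a background of 0.011%, with 1 of 32 (all genes, 6.73%) under an unadjusted p of 0.05 by limma. That gene, Pgam2, differed by 0.47 ± 0.20 (SE, adjusted p = 0.681). Hk2 read -0.75 and 1.09 at 1 mM, against -1.07 and -0.92 at 25 mM, with replicates at 1 mM farther apart than the groups. Ldhb read -0.34 and 0.28 at 1 mM, against 0.81 and 0.82 at 25 mM, a log2 difference of -0.84 ± 0.45 (adjusted p = 0.791). The groups of Ldhb did not overlap, which 2 arrays against 2 can do without a difference, and the share of all genes was not counted. The mean over both lines and 24, 48 and 72 h gave 0 of 32, against a background of 0%, with 2 (all genes, 5.04%) under an unadjusted p of 0.05, Pfkm at -0.27 ± 0.09 and Slc2a4 at 0.24 ± 0.09 (adjusted p = 0.959 for both), the other probe set of Slc2a4 giving -0.01. The difference between the lines in the glucose effect at 72 h gave 0 of 32, against a background of 0%, with 7 (all genes, 12.2%) under an unadjusted p of 0.05. With 2 arrays a group, a difference in any 1 gene had to be large to pass, and 0 calls do not show that glucose left these genes as they were.

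**Figure D5:**
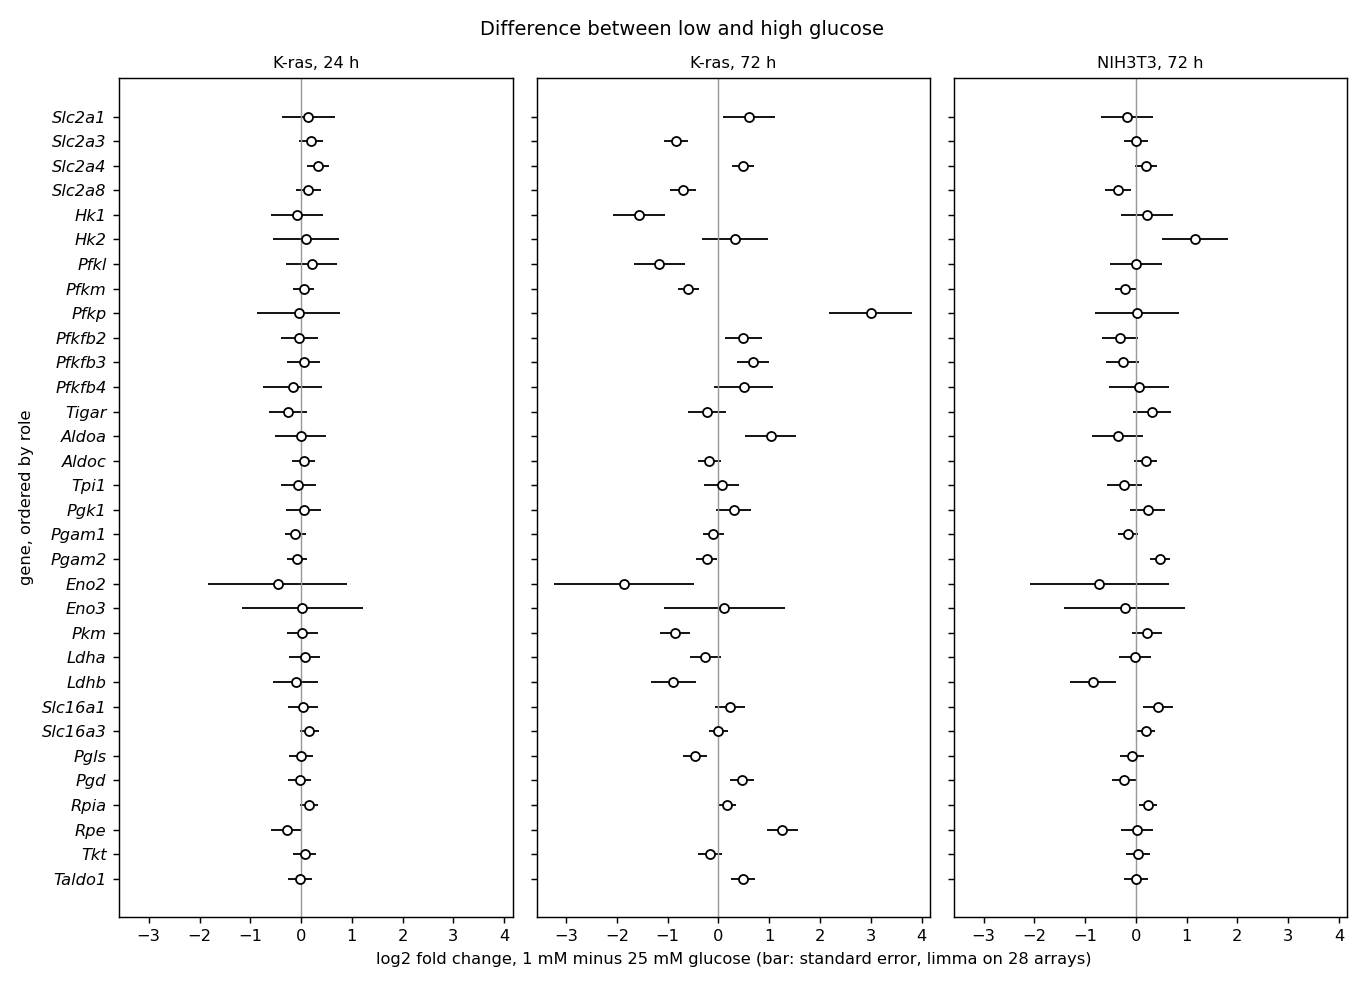
Log2 fold change of 1 mM over 25 mM glucose with its standard error (x axis) for the 32 genes by role (y axis), in K-ras at 24 h, K-ras at 72 h and NIH3T3 at 72 h. Points in K-ras at 24 h lie close to 0, between -0.46 and 0.33, and none of the points in the 3 panels passed an adjusted p of 0.05.

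The arrays with the other profile carried the enolase and phosphofructokinase pattern of that profile. These genes were not used to find it, but they were picked as genes that differ between the lines. Such genes follow a grouping by line closely, so this is not an independent check. At 1 mM and 24 h, the NIH3T3 arrays read 3.40 and 0.25 for Eno2, -2.39 and -0.29 for Eno3, and -0.87 and -1.93 for Pfkp. Replicate 1 of NIH3T3 at 1 mM and 48 h read 2.64 for Eno2 and -0.79 for Eno3, and replicate 2 read -0.83 and 1.82. K-ras at 1 mM and 48 h read -1.43 and 2.44 for Eno2, and 1.04 and -0.90 for Eno3. On the arrays in place at 1 mM, Eno2 minus Eno3 ran from 1.26 to 6.04 on 4 K-ras arrays, against -3.97 to -1.03 on 3 NIH3T3 arrays, and Pfkp minus Pfkl from -1.74 to -0.98, against 0.85 to 2.17. These arrays were kept for their line profile, so a separation of the lines was close to fixed. The share of all genes was not counted at 1 mM. With all arrays the lines overlapped. Eno2 minus Eno3 then ran from -3.16 to 6.04 in K-ras, against -3.97 to 5.80 in NIH3T3. Pfkp minus Pfkl ran from -1.74 to 2.41, against -2.03 to 2.17. Which cells or samples these 6 arrays hold was not tested.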

How the data were processed

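Log2 values of 45101 probe sets on 28 arrays were deposited by the authors. RMA is named per the submitters' processing notes, without a version or step; Trizol, RNeasy columns and a one-cycle biotin labelling were used per the labels' protocols. Tested on the file, 45101 of 45101 probe sets have a median ratio within 0.001 of 1 over the arrays, so the log2 values deposited are centred per probe set, the level is gone, and signal over background is unknown. Array medians ran from -0.04 to 0.05. Names came from the platform annotation table, and 34945 probe sets had 1 symbol; the one with the largest SD stood for each of 18193 genes. limma 3.58.1 in R 4.3.3 fitted 14 group means to 28 arrays as labelled (14 residual degrees of freedom) with Benjamini-Hochberg adjustment over all genes in each of 13 comparisons, and a gene was called at an adjusted p under 0.05. SE are limma's and p-values reflect only the spread between these cultures. The fit was tested on simulated data. Arrays out of place were found by average linkage in 2 clusters. Alternatives were quantile normalization, the mean of all probe sets, an SD filter, the replicate block, only the arrays compared, without the 6 arrays, and without each array. Every gene called, all isoform sets, pairs of isoforms and the pentose phosphate genes are named, other genes by count; Eno2 minus Eno3 was added after seeing that Eno1 had no probe set. The genes, lists and tests were chosen with earlier results of these data known. Promoters are those of the RefSeq table on GRCm38.p6, with 35 of 37 genes matched; Python 3.11.15 was used.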

Additional observations from a re-analysis of the deposited data

How the results depend on the processing

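Over 167 recomputed values of the called genes, 167 kept their direction and 112 stayed past the threshold. The direction could hardly fail, because these genes were chosen as called in the same data. The SD filter, the replicate block and the fit of only the arrays compared also leave the differences as they were. So does leaving out the 6 arrays where none of them is compared. Of the genes called between the lines at 25 mM (mean over times), 4 with all arrays, the count was 8 with quantile normalization (all genes, 11.8%), 9 without the 6 arrays out of place (17.9%) and 7 with only the arrays compared (15.6%), and it ran from 2 to 7 with 1 array left out (5.28% to 15.5%), lowest without replicate 2 of K-ras at 0 h and highest without replicate 1 of K-ras at 0 h or replicate 2 of NIH3T3 at 48 h. At 25 mM and 72 h, 1 gene became 0 with quantile normalization, 6 without the 6 arrays (all genes, 8.89%) and 0 with the replicate block, and 0 to 7 with 1 array left out, the 7 without replicate 2 of K-ras (16.6%), where 0 remained without replicate 1. At 1 mM and 72 h, 1 gene became 0 with quantile normalization, the mean of probe sets, the SD filter, the replicate block and only the arrays compared, 7 without the 6 arrays (8.09%), and 0 to 1 with 1 array left out. In NIH3T3 at 25 mM, 72 against 0 h, 3 became 12 with only the arrays compared (all genes, 27%) and 0 to 0 with 1 array left out; 72 against 24 h, 3 became 1 with quantile normalization (2.47%), 9 with only the arrays compared (19.5%) and 0 to 1 with 1 array left out. With 1 array left out, 0 genes became 0 to 4 in K-ras at 72 against 24 h, 0 to 5 for the difference between lines in that change, 0 to 6 for glucose in K-ras at 72 h and 0 to 4 for the difference between lines in the glucose effect, each time highest without replicate 2 of K-ras at 25 mM and 72 h, where 12.8%, 11.3%, 13.8% and 8.74% of all genes passed. Glucose in K-ras at 72 h gave 3 without the 6 arrays (3.74%). Shared replicate numbers did not pair the arrays: over 91 pairs of groups the correlation of deviations ran from -0.68 to 0.69 (median -0.04), and 23 were over 0.1. With the replicate block, Pfkfb4 between the lines (adjusted p = 0.0591), Pfkp at 72 h (0.0567) and Hk1 at 1 mM (0.0535) missed the threshold. A filter on dim genes needs a level and was not run. Having 2 arrays a group, centred values and the 6 arrays limit every comparison.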
